A study of Mus musculus with 6 samples.

Results

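The 10 BCL2 family genes described here were chosen by symbol from the 23413 genes of the count table. They are the survival genes Bcl2, Bcl2l1 (BCL-XL) and Mcl1, the BH3-only genes Bcl2l11 (BIM), Bmf, Bid, Bbc3 (PUMA) and Pmaip1 (NOXA), and the effector genes Bax and Bak1. The set was drawn up because Bmf was known from these libraries to be much lower in stimulated cells, so its values are a description and carry no test. All 10 symbols were found, and 9 had enough counts to be tested among 10724 genes. The exception was Bcl2.

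The BCL2 family decides whether a cell keeps its mitochondria intact or releases cytochrome c and dies by apoptosis. Survival proteins such as BCL2, BCL-XL and MCL1 hold the pore-forming effectors BAX and BAK in check. The BH3-only proteins, among them BIM, BMF, BID, PUMA and NOXA, bind the survival proteins or the effectors and so favour death. Transcription of BH3-only genes is a main point of control, while BID also needs cleavage by a caspase and MCL1 is a short-lived protein. Alveolar macrophages take up inhaled particles and microbes in the airspaces. They are long-lived cells, and their survival depends on growth factor signals that act on this family.

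Alveolar macrophages were lavaged from wild-type mice. Their strain, sex and age are not stated by the sources. In the LPS + VD3 group, cells were cultured for 4 h with lipopolysaccharide (LPS, 100 ng/mL), a bacterial cell wall component sensed through Tlr4, and 50 nM vitamin D3 (VD3), whose active form binds the nuclear receptor Vdr. In the LPS group, cells received the same LPS dose for the same time. The control group is labelled only as control, with its culture conditions not stated. In comparisons with control, LPS and any difference in culture therefore cannot be told apart. Each group had 2 RNA-seq libraries, 6 in all, with 5022314 to 5465223 counts per library. The labels do not tie a library to its own mouse or culture, so every p-value reflects how much the libraries vary, and part of that may be technical.

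All members but Pmaip1 are shown by the coding stretch of their BH3 motif, the short helix that defines the family and through which its members bind each other. Each line holds 36 bases of the GENCODE M21 transcript on mm10, 5′ to 3′ on the coding strand. Capitals mark the codons of the conserved leucine and aspartate, found in each translation as leucine, any 3 residues, glycine or alanine, and aspartate.
Bcl2: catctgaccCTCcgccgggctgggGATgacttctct
Bcl2l1: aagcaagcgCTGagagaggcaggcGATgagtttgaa
Mcl1: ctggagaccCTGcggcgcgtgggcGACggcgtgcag
Bcl2l11: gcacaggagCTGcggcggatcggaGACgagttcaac
Bmf: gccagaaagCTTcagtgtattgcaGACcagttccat
Bid: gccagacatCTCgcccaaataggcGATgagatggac
Bbc3: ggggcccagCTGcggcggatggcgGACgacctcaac
Bax: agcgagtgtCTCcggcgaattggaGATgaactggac
Bak1: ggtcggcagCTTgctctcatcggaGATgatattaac

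Each stretch lies within 1 coding exon. They are at chr1:106712575-106712610 (Bcl2, minus strand), chr2:152829697-152829732 (Bcl2l1, minus), chr3:95659427-95659462 (Mcl1, plus), chr2:128147141-128147176 (Bcl2l11, plus), chr2:118545100-118545135 (Bmf, minus), chr6:120897289-120897324 (Bid, minus), chr7:16313764-16313799 (Bbc3, plus), chr7:45465997-45466032 (Bax, minus) and chr17:27022531-27022566 (Bak1, minus). The closest pair over these bases was Bcl2l11 and Bbc3, with 25 of 36 identical, and the most distant was Bcl2l1 and Bmf, with 12. Gene counts do not resolve splice forms. The long, survival-promoting and short, death-promoting forms of Bcl2l1 and Mcl1, and the several lengths of Bcl2l11, are therefore summed.

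Per kilobase of exon, Mcl1 was the most abundant of the 10 transcripts in all 3 groups. Its level was 119 ± 2.17 CPM per kb in LPS + VD3, 114 ± 9.68 in LPS and 99.8 ± 6.16 in control (SD, n = 2). In control cells Bax (51.6 ± 6.08 CPM per kb) and Bak1 (39.0 ± 1.11) followed, then Bcl2l1 (15.9 ± 0.781), Pmaip1 (7.96 ± 0.525) and Bcl2l11 (5.24 ± 0.738). Bcl2l11, Bid and Bmf were close neighbours in control, ahead of Bbc3 and Bcl2. Libraries of Bid overlapped those of Bcl2l11 and those of Bmf, while Bcl2l11 and Bmf did not overlap. In LPS + VD3 cells Bcl2l11 came directly after Bak1 at 29.4 ± 2.47 CPM per kb, and Bcl2l1 came below Bid at 3.61 ± 0.465, with no neighbours overlapping in that order. In LPS cells Mcl1 and Bax, Bax and Bak1, and Bcl2l1 and Pmaip1 overlapped.

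**Figure D1:**
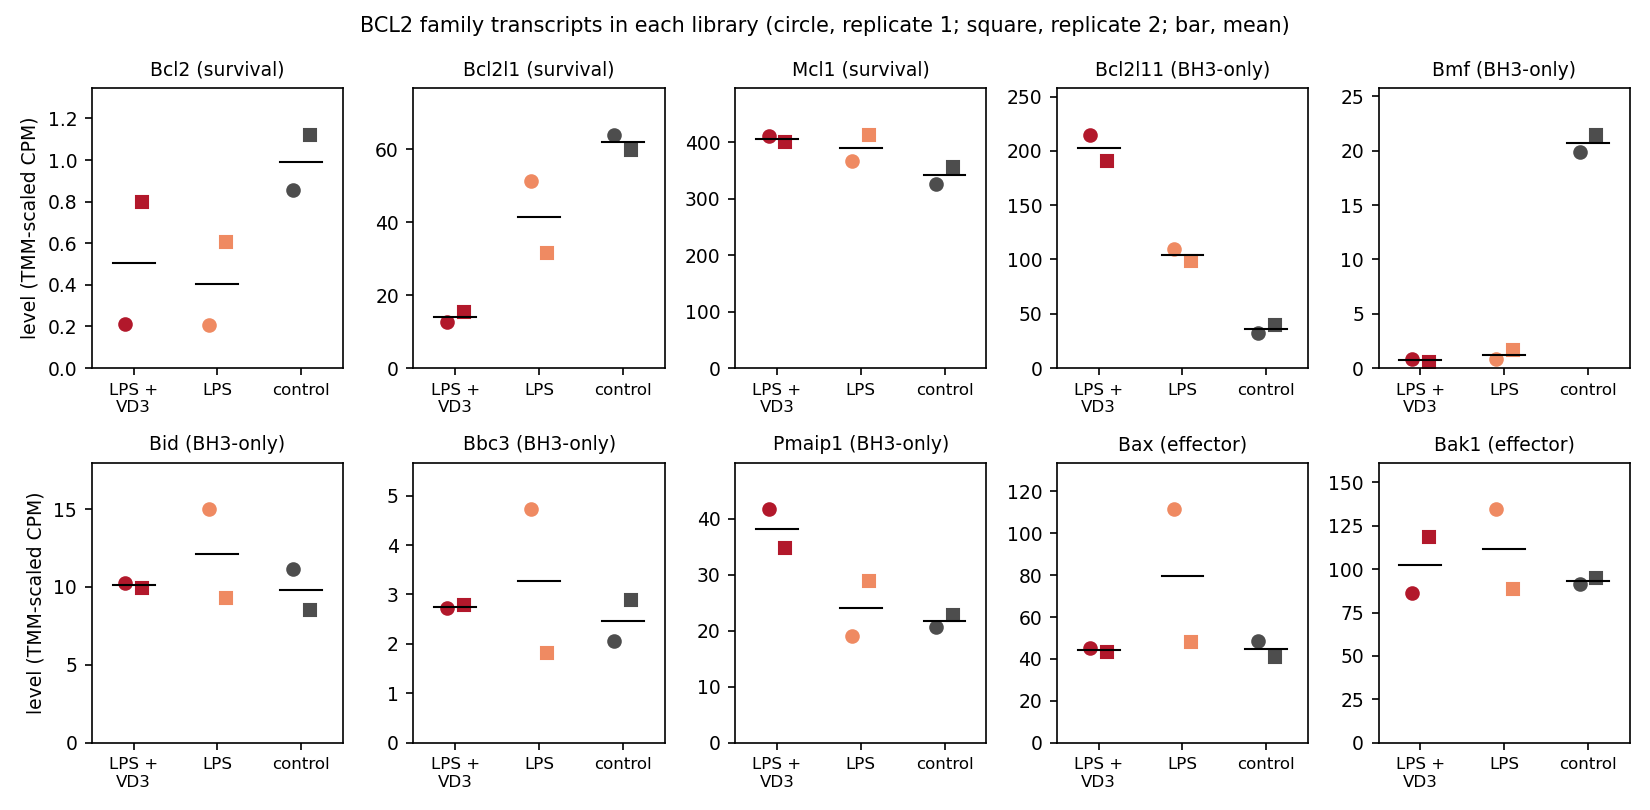
Level of each BCL2 family gene in TMM-scaled CPM on a linear axis from 0, with 2 libraries in each of LPS + VD3, LPS and control (circle, replicate 1; square, replicate 2; bar, mean). Bcl2l11 is highest in LPS + VD3 and lowest in control, Bcl2l1 runs the other way, Bmf is near 0 in both stimulated groups, and Bax is high only in LPS 1.

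The survival gene Bcl2l1, whose protein BCL-XL blocks the effectors, was lowest in cells that received VD3. It had 12.8 and 15.3 CPM in LPS + VD3, 51.3 and 31.6 CPM in LPS, and 64.1 and 59.8 CPM in control. No 2 groups overlapped, and the LPS + VD3 libraries stood well below the others. The fall from VD3 on top of LPS was -1.56 ± 0.25 on the log2 scale (SE; edgeR quasi-likelihood test, adjusted p = 0.00878 by Benjamini-Hochberg over all 10724 genes), which is 2.94-fold lower with a 95% interval of 0.23 to 0.503 for the ratio. The call did not depend on LPS 1, the higher LPS library: without it the fold change was -1.17 (edgeR adjusted p = 0.00245). It was lost without LPS + VD3 1 (edgeR adjusted p = 0.132) or LPS + VD3 2 (0.133), fits that leave a single library in the group, and with no filter beyond 1 count (0.0602).

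Bcl2l11, which encodes BIM, a BH3-only protein that binds all main survival proteins, moved the opposite way. It had 215 and 191 CPM in LPS + VD3, 110 and 98.7 CPM in LPS, and 32.6 and 39.8 CPM in control. The 3 groups were fully separate, with control lowest. VD3 on top of LPS raised it by 0.96 ± 0.16 on the log2 scale (SE; edgeR adjusted p = 0.0106), 1.95-fold with a 95% interval of 1.51 to 2.51. Without LPS 1 or LPS 2 the fold change was 1.03 and 0.89, still called, but without LPS + VD3 1 or LPS + VD3 2 the edgeR adjusted p was 0.125 and 0.109.

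These were the 2 of 9 tested members called between LPS + VD3 and LPS, where 3.83% of all genes tested were called. Bcl2l11 was higher, as were 2.25% of all genes, and Bcl2l1 lower, as were 1.59%. The median over the tested members was -0.24, and over all genes tested -0.0025. No test was made of the set. The libraries of LPS + VD3 and LPS did not overlap in Bcl2l1, Bcl2l11, Pmaip1 and Bax, which was the case for 48.1% of all genes tested.

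Among survival genes, Mcl1, the labile survival protein of myeloid cells, did not pass the test between LPS + VD3 and LPS. It had 411 and 401 CPM in LPS + VD3, 367 and 414 CPM in LPS, and 326 and 356 CPM in control. LPS + VD3 lay within the range of the LPS libraries, with a fold change of 0.06 ± 0.14 on the log2 scale (edgeR adjusted p = 0.835) and a 95% interval for the ratio of 0.834 to 1.3. Against control its sign depended on the scaling: it was 0.19 for LPS, but -0.10 without scaling beyond library size. Bcl2, the founding member, was barely detected: 5 counts over both LPS + VD3 libraries, 4 over both LPS libraries and 12 over both control libraries. At that depth no difference could be tested, and 558 of its exon bases lie opposite the antisense gene D630008O14Rik. Of the summed CPM per kb of Bcl2, Bcl2l1 and Mcl1 alone, Mcl1 made up 96.7% to 97.3% in LPS + VD3, 89.0% to 93.7% in LPS and 85.2% to 87.0% in control. These sums leave out the survival genes outside the set, 4 Bcl2a1 copies and Bcl2l2, which summed to 2924 and 2570 CPM per kb in LPS + VD3, 3132 and 3119 in LPS, and 705.5 and 668.6 in control. With them counted, Mcl1 made up 3.95% to 4.36% in LPS + VD3, 3.30% to 3.73% in LPS and 11.7% to 13.2% in control.

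Bmf, a BH3-only gene whose protein is held at the cytoskeleton by dynein light chains, was the member for which the set was chosen. It had 0.837 and 0.597 CPM in LPS + VD3, 0.821 and 1.62 CPM in LPS, and 19.9 and 21.5 CPM in control. In raw counts these are 4 and 3, 4 and 8, and 116 and 134. The stimulated libraries overlapped each other and lay far below control. The fold change was -4.05 ± 0.34 on the log2 scale for LPS against control, 16.6-fold lower, and -4.81 ± 0.37 for LPS + VD3 against control, 28.0-fold lower. Without LPS 1 the first value was -3.68 and without LPS 2 it was -4.62. Whether fewer cells with Bmf or less Bmf RNA per cell lay behind such bulk values cannot be told apart, here and for every gene named.

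Bmf and Bcl2l11, related BH3-only genes, thus had opposite courses. Per kilobase, Bcl2l11 exceeded Bmf by 180 and 224 times in LPS + VD3 and by 93.7 and 42.7 times in LPS, against 1.147 and 1.297 times in control. Of the summed CPM per kb of the BH3-only members alone, Bcl2l11 took 59.1% to 59.4% in LPS + VD3 and 47.0% to 49.0% in LPS. In control it took 20.9% to 24.01%. The share of Bmf was 0.265% to 0.328% in LPS + VD3 and 0.522% to 1.10% in LPS, against 18.2% to 18.5% in control. These shares leave out BH3-only genes outside the set, such as Bad. Its mean was 8.81 CPM in LPS + VD3, 16.7 in LPS and 12.9 in control.

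Genes were ranked by likeness to Bmf, as the Euclidean distance of centred log2 CPM over the 6 libraries. The 9090 ranked genes were tested, had no placeholder symbol and had a mean CPM with a log2 of at least 2. The 5 most like Bmf were Rufy4, Hspa12a, Scd2, Plxdc1 and C5ar2. Their distances were 0.547 to 0.959, and Pearson's r with Bmf was 0.984 to 0.997, as a description over libraries that share these groups. Rufy4, the nearest, had 8 and 10 counts in LPS + VD3, 8 and 12 in LPS, and 226 and 230 in control. The list includes Scd2, a fatty acid desaturase, and C5ar2, a complement C5a receptor. All but Scd2 reached that mean CPM only through control. C5ar2 had 14.9 and 15.7 CPM there and 0.607 or less in the stimulated libraries. Rufy4 had 38.7 and 36.9 CPM in control and 2.43 or less in the stimulated libraries. Plxdc1 had 25.2 and 23.4 against 3.04 or less, and Hspa12a 55.5 and 50.0 against 1.39 to 5.46. Scd2 had 34.2 to 38.2 CPM in the stimulated libraries.

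Of the other BH3-only genes, Pmaip1, whose protein NOXA neutralises MCL1, had 41.7 and 34.8 CPM in LPS + VD3, 19.1 and 28.9 CPM in LPS, and 20.7 and 22.8 CPM in control. Both LPS + VD3 libraries were above all others. The difference from LPS did not pass (0.67 ± 0.23 on the log2 scale, edgeR adjusted p = 0.135), with a 95% interval for the ratio of 1.12 to 2.26. Of 15 alternative fits, only the one without LPS 2 called it (1.005, edgeR adjusted p = 0.00272).

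Bid, cleaved by caspase-8 to link death receptors to mitochondria, had 10.3 and 9.95 CPM in LPS + VD3, 14.98 and 9.31 CPM in LPS, and 11.1 and 8.49 CPM in control. Bbc3, the p53-induced PUMA gene, had 2.72 and 2.79 CPM in LPS + VD3, 4.72 and 1.82 CPM in LPS, and 2.06 and 2.88 CPM in control. In both genes LPS 1 was the highest of the 6 libraries, and the groups overlapped. Neither was called between LPS + VD3 and LPS, with log2 fold changes of -0.26 ± 0.29 for Bid (edgeR adjusted p = 0.613) and -0.24 ± 0.49 for Bbc3 (0.795). The 95% intervals of these ratios were 0.534 to 1.3 for Bid and 0.399 to 1.79 for Bbc3. Exons of Bid share 628 bases with Bcl2l13 on the other strand, and how the counting treated strand is not stated by the sources.

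The effector gene Bax had 45.0 and 43.4 CPM in LPS + VD3, 111 and 48.2 CPM in LPS, and 48.5 and 41.0 CPM in control. All libraries but LPS 1 lay between 41.0 and 48.5 CPM. Bak1, the other effector, had 86.3 and 119 CPM in LPS + VD3, 134 and 88.6 CPM in LPS, and 91.3 and 95.04 CPM in control. Its highest library was again LPS 1, and the groups overlapped. Between LPS + VD3 and LPS, Bax was at -0.85 ± 0.32 on the log2 scale (edgeR adjusted p = 0.164) and Bak1 at -0.12 ± 0.22 (edgeR adjusted p = 0.776). Without LPS 1 Bax was at -0.13 (edgeR adjusted p = 0.769), and without LPS 2, which rests the LPS group on LPS 1 alone, at -1.33 (8.14e-05). Bax shares 192 exon bases with Gm45808 on the same strand and Bak1 614 with Ggnbp1 on the other, so both counts carry some uncertainty.

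By its title, LPS 1 was numbered apart from the other 5 libraries, and its difference from LPS 2 went with the GC content of transcripts. Spearman's rho across 10650 tested genes was 0.657 between the LPS libraries, against 0.18 for LPS + VD3 and 0.236 for control, given as a description. The 2130 genes above 55.01% GC had a median log2 difference of 0.47 between LPS 1 and LPS 2, and the 2130 genes below 43.51% had -0.44. Bbc3 (65.2% GC) and Bax (63.5%) differed by 1.37 and 1.21 on this scale, Bak1 (57.1%) and Bcl2l1 (55.9%) by 0.60 and 0.70, and Pmaip1 (42.1%) by -0.60. Mcl1 (48.7%) and Bcl2l11 (48.0%) differed by -0.17 and 0.15. Bmf, at 53.7% and few counts, went against the trend with -0.98. The part of GC content in these differences was not tested. Offsets fitted to GC content in each library also take out any treatment difference that goes with GC content. With them Bcl2l1 stayed called between LPS + VD3 and LPS at -1.28 (edgeR adjusted p = 0.00111). Bcl2l11 stayed called at 0.90 (edgeR adjusted p = 0.00196), and Bax was at -0.26 (0.376).

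**Figure D2:**
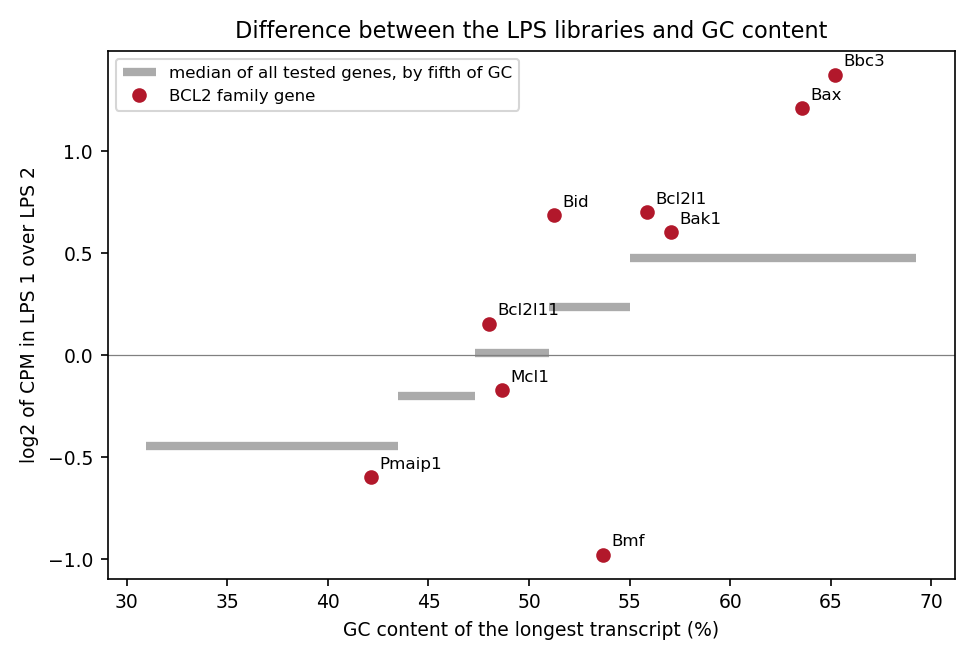
Log2 of CPM in LPS 1 over LPS 2 against the GC content of the longest transcript in percent, with 1 point for each of the 9 tested BCL2 family genes and grey bars for the median of all tested genes in 5 equal classes of GC. Bbc3 and Bax, at 65.2% and 63.5% GC, differ most, at 1.37 and 1.21, and Bmf lies apart at -0.98.

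The comparisons with control were the ones that brought Bmf into the set, so member values in them are given as fold changes without p. In LPS against control, 1 of 8 tested members other than Bmf was called, Bcl2l11 upward (1.53 ± 0.17 on the log2 scale, 2.88-fold). The share called over all genes tested was 31.8%, with 15.7% higher and 16.2% lower. The set was built around Bmf in this comparison, so Bmf carries no test and nothing is read from the count. The libraries of LPS and control did not overlap in 5 of the 10 members. These were Bcl2l1, Mcl1, Bcl2l11, the untested Bcl2 and, by the choice of the set, Bmf. They did not overlap in 65.2% of all genes tested, and nothing is read from the member count. Bcl2l1 was at -0.58 ± 0.23, below control in both LPS libraries but not called. That value depended on the LPS library: it was -0.99 and called without LPS 1, and -0.27 without LPS 2. Bax was at 0.83 ± 0.32 and not called, and at 0.09 without LPS 1. The others, not called, were Bbc3 at 0.39 ± 0.48, Bid at 0.31 ± 0.28, Bak1 at 0.26 ± 0.22, Mcl1 at 0.19 ± 0.14 and Pmaip1 at 0.14 ± 0.23. The median over the tested members was 0.26, and over all genes tested 0.0062.

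In LPS + VD3 against control, 3 of 8 tested members other than Bmf were called, from which nothing is read. Over all genes tested 35.0% were called, 17.7% higher and 17.3% lower. Bmf is again left out by the choice of the set and carries no test. The libraries did not overlap in 6 of the 10 members. These were Bcl2l1, Mcl1, Bcl2l11, Pmaip1, the untested Bcl2 and, by the choice of the set, Bmf. They did not overlap in 75.8% of all genes tested, and nothing is read from the member count. Bcl2l11 was 5.61-fold higher (2.49 ± 0.17 on the log2 scale) and Pmaip1 1.76-fold higher (0.81 ± 0.23), while Bmf and Bcl2l1 were lower, Bcl2l1 by 4.397-fold (-2.14 ± 0.25). The Pmaip1 call was lost without scaling beyond library size, in the deposited log2 table and without any 1 of the 4 libraries compared, with values of 0.48 to 0.91. Mcl1 was at 0.25 ± 0.14, Bbc3 at 0.15 ± 0.49, Bak1 at 0.14 ± 0.22, Bid at 0.04 ± 0.29 and Bax at -0.02 ± 0.32. This comparison shares its control libraries with the one before and its LPS + VD3 libraries with the first, and those 2 comparisons share the LPS libraries, so the values are not independent. The median over the tested members was 0.14, and over all genes tested 0.0081.

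**Figure D3:**
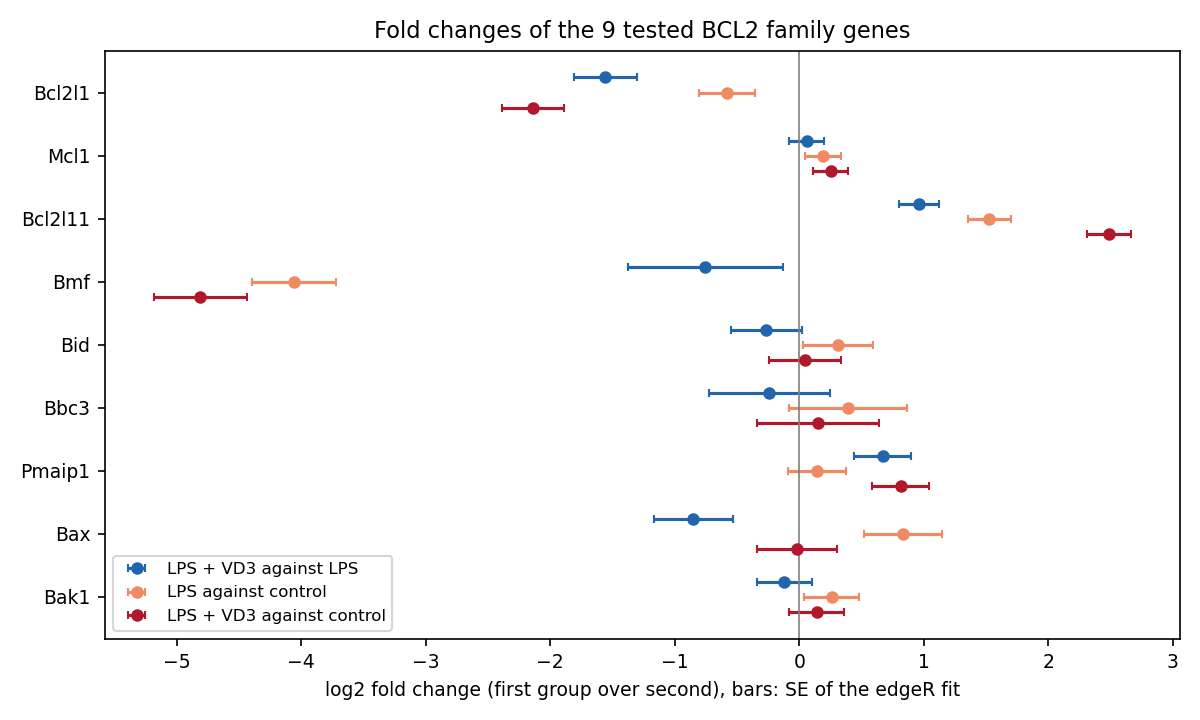
Log2 fold change of each of the 9 tested BCL2 family genes in 3 comparisons, first group over second, with bars for the SE of the edgeR fit. Bcl2l11 is above 0 and Bcl2l1 below 0 in each, Bmf lies at -4.05 and -4.81 against control, and Bax is at 0.83 in LPS against control and -0.02 in LPS + VD3 against control.

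The ratios of Bcl2l11 to Bcl2l1 and to Mcl1 differed in all 3 groups. Per kilobase, the ratio of Bcl2l11 to Bcl2l1 was 9.49 and 7.02 in LPS + VD3, 1.21 and 1.76 in LPS, and 0.286 and 0.375 in control. No groups overlapped, and BIM transcripts outnumbered those of BCL-XL in all 4 stimulated libraries and in neither control library. The ratio of Bcl2l11 to Mcl1 was 0.259 and 0.236 in LPS + VD3, 0.148 and 0.118 in LPS, and 0.0494 and 0.0553 in control. Mcl1 stayed the more abundant in every library. Summed per kilobase, the 5 BH3-only members, without Bad, reached 52.8 and 46.6 CPM per kb in LPS + VD3. They reached 32.5 and 30.5 in LPS, and 22.6 and 24.01 in control. Bcl2, Bcl2l1 and Mcl1 summed to 121 to 124, 121 to 129 and 112 to 120 in the same groups. The far more abundant Bcl2a1 copies are left out of these ratios and sums. With them and Bcl2l2, survival genes summed to 3047 and 2692 CPM per kb in LPS + VD3, 3252 and 3248 in LPS, and 817.5 and 788.3 in control. Bcl2l11 had 31.2 and 27.7, 15.9 and 14.3, and 4.72 and 5.76 in the same groups. Relative to that wider sum, Bcl2l11 was lower in LPS than in control and highest in LPS + VD3. These are ratios and sums of RNA, and neither protein nor cell death was measured in the data used here.

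**Figure D4:**
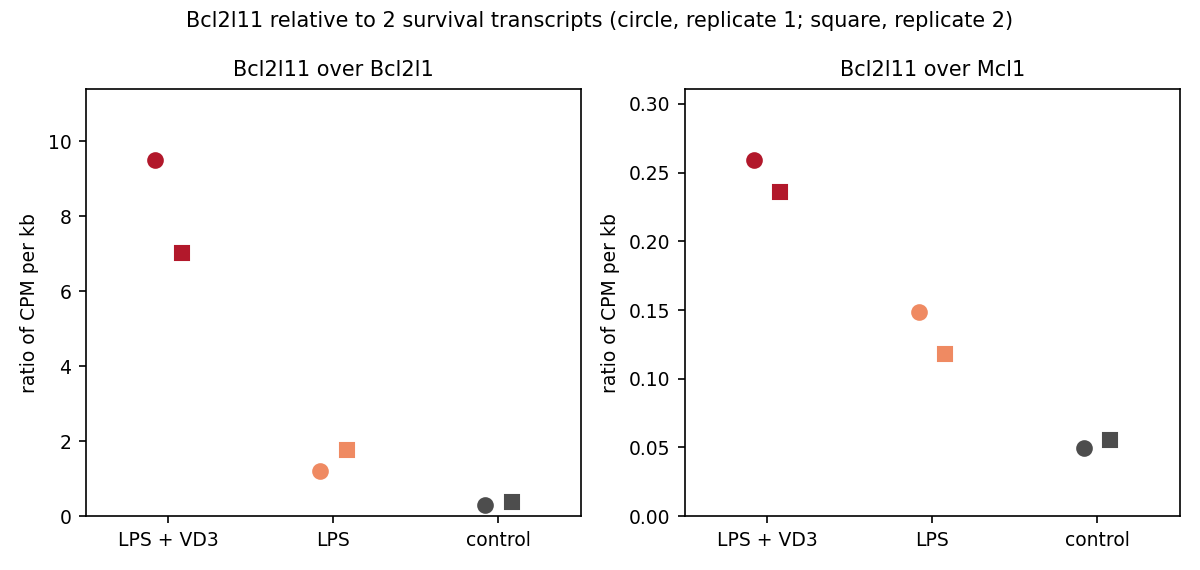
Ratio of Bcl2l11 to Bcl2l1 (left) and to Mcl1 (right), in CPM per kb on linear axes from 0, for 2 libraries in each of LPS + VD3, LPS and control (circle, replicate 1; square, replicate 2). The ratio to Bcl2l1 is 9.49 and 7.02 in LPS + VD3 and below 0.4 in both control libraries.

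The upstream stretches of the 2 BH3-only genes with opposite courses are shown. They were picked for those courses, and matches in other members are given below. Both run 5′ to 3′ over the 250 bases before the outermost start site (RefSeq, GRCm38.p6), and capitals mark matches.
Bcl2l11, chr2:128125788-128126037, plus strand: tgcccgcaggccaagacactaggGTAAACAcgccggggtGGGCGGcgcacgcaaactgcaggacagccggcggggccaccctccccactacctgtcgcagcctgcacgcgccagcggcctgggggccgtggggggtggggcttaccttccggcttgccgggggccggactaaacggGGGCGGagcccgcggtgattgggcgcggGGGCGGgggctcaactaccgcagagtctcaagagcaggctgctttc
Bmf, chr2:118549687-118549936, minus strand: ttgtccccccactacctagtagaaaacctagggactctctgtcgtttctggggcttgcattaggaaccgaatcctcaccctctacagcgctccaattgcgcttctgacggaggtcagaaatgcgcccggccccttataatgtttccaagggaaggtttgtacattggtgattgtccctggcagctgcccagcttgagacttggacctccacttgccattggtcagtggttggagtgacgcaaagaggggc

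Motifs were searched on both strands. They were an NF-kB motif (GGG and TTTCC with 2 bases between), a direct repeat of the vitamin D receptor core GNTCA with 4 bases between, an interferon response element (GAAA repeated with 2 bases between), the FOXO motif TGTTTAC, the GC box GGGCGG, the CREB motif TGACGTCA and the AP-1 motif TGANTCA. The Bcl2l11 window held 1 FOXO match, 227 bases before the start on the minus strand, and 3 GC boxes. The Bmf window and the window of Bcl2l1 at its outermost start held none of the 7. Among members that the main fit did not call, the Bak1 window also held none. The Mcl1 window held a GC box and an NF-kB match, the latter 28 bases before the start. Windows of Bbc3 held NF-kB, FOXO and GC box matches, and those of Bcl2, Bax and Bid held GC boxes alone. Other RefSeq starts differed: the Bcl2l1 window at 152830717 held 1 NF-kB match, 218 bases before it on the minus strand, its window at 152828489 and both other Bmf windows held none, and the other Bcl2l11 window held 2 GC boxes. Of 32851 RefSeq promoter windows of this length, 3.17% held the FOXO motif, 32.7% a GC box, 1.41% the NF-kB motif and 0.548% the vitamin D receptor repeat. The interferon element was in 2.98%, the CREB motif in 1.55% and the AP-1 motif in 6.75%. Each match is a run of letters and not a shown binding site, no match says only that these letters are not in the window, and distant regulatory sites were not searched.

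Further BCL2 family genes were read from a list of 16, of which 11 were tested. In LPS against control, 5 of them were called higher and 1 lower, beside 15.7% and 16.2% of all genes tested. Their median was 0.38. The survival genes Bcl2a1d, Bcl2a1b and Bcl2a1a, known targets of NF-kB, rose by 2.47 ± 0.14, 2.25 ± 0.16 and 1.67 ± 0.15 on the log2 scale (edgeR adjusted p = 9.95e-07, 3.39e-06 and 2.2e-05). In CPM, Bcl2a1b averaged 1229 ± 13.1 in LPS and 259 ± 11.9 in control (SD, n = 2). These genes are near-identical copies, with Bcl2a1c (also called), so how counts were split among them is uncertain. Bcl2l2 (BCL-W), another survival gene, rose by 1.44 ± 0.19 (edgeR adjusted p = 0.000224), and Bnip3l, a mitophagy receptor, was the gene that fell, by 0.83 ± 0.16 (edgeR adjusted p = 0.00249), a call lost without control 2 (edgeR adjusted p = 0.0506). None of the 11 was called between LPS + VD3 and LPS at edgeR adjusted p under 0.05, where 3.83% of all genes tested were. Bcl2a1b was at -0.25 ± 0.15 there (edgeR adjusted p = 0.351), Bcl2a1d at -0.21 ± 0.14 (0.37), Bcl2a1c at -1.09 ± 0.57 (0.281) and Bad, another BH3-only gene, at -0.93 ± 0.34 (0.154). Each of the 4 was called in 1 or 2 of 15 other fits. At an unadjusted p under 0.05 edgeR had 1 of the 11, and DESeq2 and limma called 0.

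Downstream of the mitochondria, Parp1, a DNA repair enzyme cut by caspases, was lower in LPS than in control. Its log2 fold change was -1.14 ± 0.17 (edgeR adjusted p = 0.000584). Dffa, which holds the DNA-fragmenting nuclease of apoptosis inactive until caspases cut it, fell by 1.13 ± 0.21 (edgeR adjusted p = 0.00247). The initiator caspase genes Casp9 and Casp2 fell by 0.87 ± 0.17 and 0.89 ± 0.24 (edgeR adjusted p = 0.00282 and 0.0168). The Casp2 call was lost without control 2 (edgeR adjusted p = 0.192) and in DESeq2 (0.0636). Between LPS + VD3 and LPS, Casp9 was at 0.25 ± 0.17 (edgeR adjusted p = 0.403) and Dffb, that nuclease, at -0.81 ± 0.54 (0.388), not called.

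Of 7 tested inhibitor of apoptosis genes and their antagonists, Birc3, an NF-kB-induced ubiquitin ligase, was higher in LPS than in control. The difference was 1.90 ± 0.18 (edgeR adjusted p = 3.2e-05). Birc5 (survivin), which is tied to cell division, was lower by 1.45 ± 0.28 (edgeR adjusted p = 0.00277). Htra2 and Birc2 were not called, at 0.74 ± 0.34 and 0.45 ± 0.25. Of 11 death receptor and necroptosis genes, 3 were called higher in LPS and none lower, against 15.7% and 16.2% of all genes tested. The death receptor Fas rose by 3.005 ± 0.18, Cflar, the inhibitor of caspase-8, by 2.85 ± 0.19 and the necroptosis effector Mlkl by 0.91 ± 0.22 (edgeR adjusted p = 1.07e-06, 2.42e-06 and 0.00878), while Tnfsf10 (TRAIL) was at 0.97 ± 0.35 (0.0568). Medians were 0.29 and 0.49. Without control 2 the Mlkl call was lost (edgeR adjusted p = 0.155).

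VD3 on top of LPS changed none of these 18 genes past the threshold of the edgeR fit, which 3.83% of all genes tested passed. At an unadjusted p under 0.05 edgeR had 2 death receptor genes, DESeq2 called 1 (Cflar) and limma 0. Cflar was nearest, at 0.62 ± 0.18 (edgeR adjusted p = 0.0883), with 1446 ± 81.6 CPM in LPS + VD3 and 938 ± 226 CPM in LPS (SD, n = 2). It was called in 5 of 15 other fits: DESeq2, the replicate block, GC offsets, both together, and without LPS 2 (edgeR adjusted p = 0.000314). Tradd, called with the block, was at -0.92 ± 0.33, Htra2 at -0.61 ± 0.34, Tnfrsf10b at 0.48 ± 0.22 and Fadd at -0.46 ± 0.22. Diablo was at -0.42 ± 0.21, Xiap at 0.40 ± 0.22 and Birc6 at 0.15 ± 0.16. Several of these values depended on LPS 2. Without it, Tradd was at -1.31, Htra2 at -1.07, Xiap at 0.82, Diablo at -0.63 and Birc6 at 0.38.

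Of 6 tested genes listed for MCL1 turnover, which include the phosphatase gene Dusp6, VD3 raised 1 against LPS and lowered none. In this comparison 2.25% of all genes tested were called higher and 1.59% lower. Fbxw7, a ubiquitin ligase subunit that marks MCL1 and MYC among others, rose to 69.1 ± 8.64 CPM in LPS + VD3, against 30.5 ± 8.91 CPM in LPS (SD, n = 2). The log2 fold change was 1.18 ± 0.22 (edgeR adjusted p = 0.0167). The call was lost without LPS + VD3 1 (0.104), without LPS + VD3 2 (0.256) and with no filter beyond 1 count (0.086). Huwe1 and Dusp6 were at 0.46 ± 0.16 and 0.45 ± 0.17 and Btrc at -0.30 ± 0.25, not called. None of the 6 was called by the main edgeR fit between LPS and control, with 2 at an unadjusted p under 0.05, 0 called by DESeq2 and 1 by limma on the deposited log2 table. There Usp9x, March5, Fbxw7 and Dusp6 were at 0.50 ± 0.20, 0.40 ± 0.16, 0.34 ± 0.23 and -0.29 ± 0.17. In that comparison edgeR called Usp9x with the replicate block, and Usp9x and March5 with GC offsets, with or without the block. Without LPS 1, Usp9x, March5 and Fbxw7 were at 0.78, 0.47 and 0.59.

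Of 12 tested transcription regulators that act on BH3-only genes, VD3 raised Myc alone against LPS (1.36 ± 0.21, edgeR adjusted p = 0.006). The shares over all genes tested were 2.25% higher and 1.59% lower. The Myc call was lost without LPS + VD3 2, where the value was 1.14. E2f1 was at 1.21 ± 0.42 and not called, with 224 and 776 counts in LPS + VD3 and 199 and 229 in LPS. Mdm4 and Foxo4 were at 0.51 ± 0.20 and -0.28 ± 0.29. In LPS against control, Mdm2, the ligase of p53, was higher by 0.84 ± 0.15. Myc and Jun were lower by 1.24 ± 0.20 and 0.63 ± 0.20, and Trp53 was at 0.49 ± 0.17 and not called. The Jun call was lost in 6 other fits. Among 7 dynein light chains and mitochondrial partners, Dynll2, the light chain known to hold BMF, was lower in LPS than in control. It was lower by 0.94 ± 0.19 (edgeR adjusted p = 0.00344). Vdac2, Tmbim6 and Bcap31 were at -0.37 ± 0.15, 0.43 ± 0.16 and 0.21 ± 0.14, not called. None of the 7 was called between LPS + VD3 and LPS by the main edgeR fit, DESeq2 or limma, with 0 at an unadjusted edgeR p under 0.05. With the replicate block and GC offsets together, edgeR called Vdac3 at -0.47 (adjusted p = 0.027). Tmbim6 was at -0.41 without LPS 2. In that comparison edgeR called 3.83% of all genes tested. There Vdac2, Tmbim6, Bcap31 and Vdac3 were at -0.20 ± 0.15, -0.24 ± 0.16, -0.14 ± 0.14 and -0.12 ± 0.18.

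**Figure D5:**
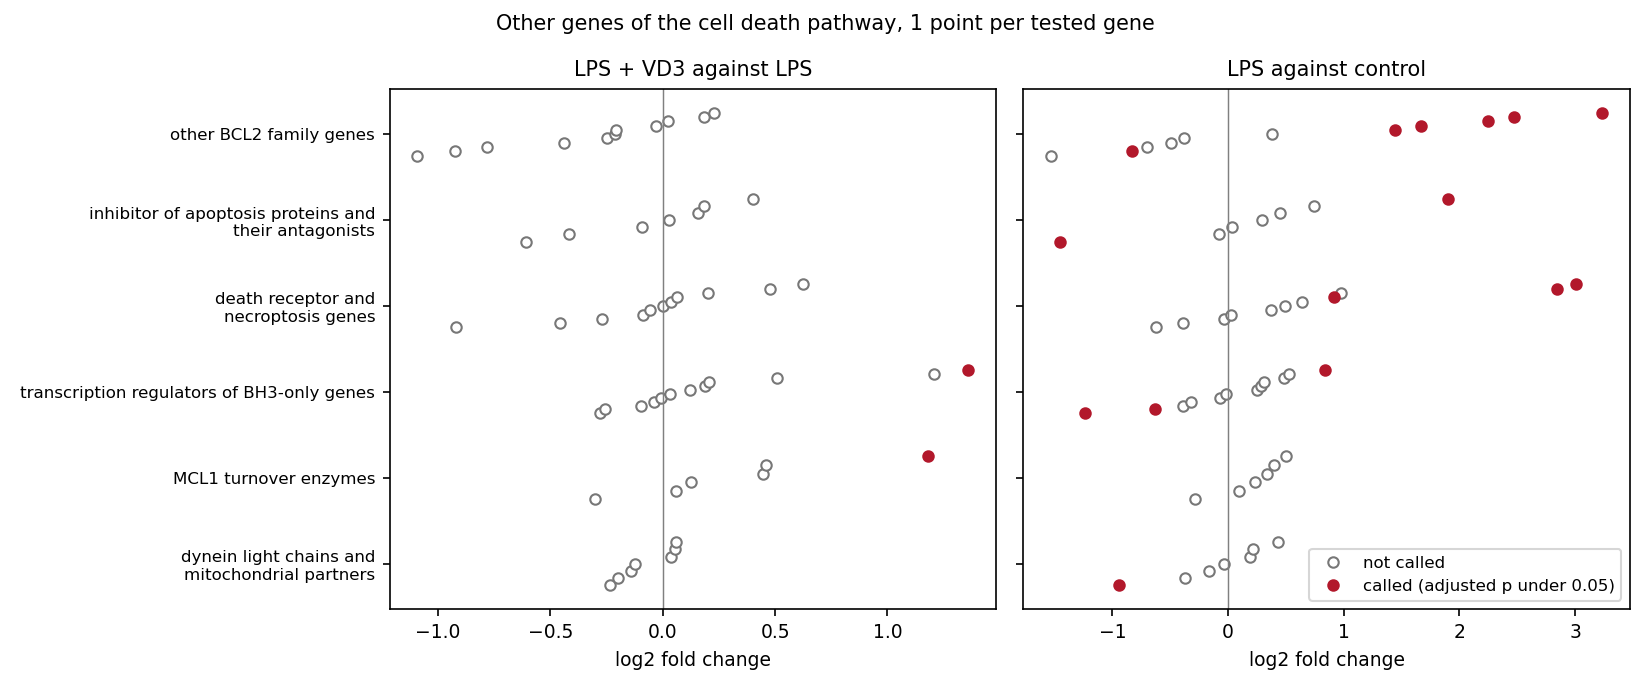
Log2 fold change of each tested gene in 6 lists of the cell death pathway, for LPS + VD3 against LPS (left) and LPS against control (right), with filled points for genes called by edgeR at adjusted p under 0.05. On the left only Myc and Fbxw7 are filled, and on the right Bcl2a1c, Fas and Cflar lie farthest to the right and Birc5 farthest to the left among the filled points.

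The LPS + VD3 cells were also set against the control libraries used above. Higher and lower calls were 4 and 2 of 11 further BCL2 family genes, 1 and 1 of 7 inhibitor of apoptosis genes and antagonists, and 3 and 1 of 11 death receptor genes. They were 3 and 0 of 12 transcription regulators, 3 and 0 of 6 MCL1 turnover genes and 0 and 2 of 7 dynein and mitochondrial partners. Of all genes tested, 17.7% were called higher and 17.3% lower in this comparison. Values included Cflar at 3.47 ± 0.19, Fas at 3.07 ± 0.18, Bcl2a1d at 2.26 ± 0.14, Birc3 at 1.93 ± 0.18, Fbxw7 at 1.52 ± 0.22, Mdm4 at 1.04 ± 0.21, Casp8 at -0.48 ± 0.17 and Dynll2 at -0.90 ± 0.19. The calls of Casp8, Huwe1, March5 and E2f1 were each lost in 6 other fits. Medians of the 6 lists, in the order just given, were -0.41, 0.14, 0.37, 0.05, 0.54 and 0.03 in LPS + VD3 against control. They were -0.21, 0.03, 0.0013, 0.08, 0.29 and -0.12 in LPS + VD3 against LPS. For transcription regulators, MCL1 turnover genes and dynein and mitochondrial partners they were 0.12, 0.29 and -0.03 in LPS against control.

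The libraries carried alveolar macrophage markers throughout, with 8 of 10 listed markers present and a summed level of 10230 to 11950 CPM in LPS + VD3, 9475 to 10090 in LPS and 6738 to 6897 in control. Single markers did not move together: of the 8 tested, LPS against control had 3 called higher (Marco, Fabp4 and Car4) and 4 lower (Siglec5 at -1.26, Ear1 at -0.88, Pparg at -0.80 and Mrc1 at -0.78 on the log2 scale). LPS + VD3 against control had 2 higher and 3 lower. Neutrophil markers summed to 29.1 to 35.6 CPM in LPS + VD3, 22.0 to 27.5 in LPS and 17.5 to 19.7 in control, with Mpo, Elane and S100a9 at 0 counts in all libraries. Lymphocyte markers stayed at or below 3.19 CPM, with Cd3e and Nkg7 at 0. Monocyte markers summed to 181 to 207 CPM in LPS + VD3, 270 to 368 in LPS and 10.1 to 11.7 in control, mostly through Vcan in the stimulated groups, whose counts were 865 and 1027 in LPS + VD3, 1302 and 1809 in LPS, and 20 and 23 in control. Ccr2, a defining monocyte receptor, went the other way, with 1 and 1 counts in LPS + VD3, 3 and 5 in LPS, and 33 and 48 in control. Lung epithelium markers summed to 38.7 to 52.6 CPM in LPS + VD3, 32.0 to 37.4 in LPS and 223 to 240 in control, nearly all of it Cdh1, with Sftpc at 0. The part of these shifts in the BCL2 family values was not tested.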

How the data were processed

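The authors deposited raw counts, as whole numbers for each gene. TopHat2, edgeR and the build mm10 are named in the submitters' processing notes, with no version or role. No source states the counting program, annotation or strand setting. The deposited second table holds log2 values, equal to log2(CPM + 1) of the counts within 0.00423, and served only in an alternative; it lists 9 of the 10 genes. Per the labels, the RNeasy Micro and KAPA mRNA HyperPrep kits were used.

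Counts were filtered with filterByExpr (minimum count 10, minimum total 15), scaled by TMM and fitted with edgeR 4.0.16 in R 4.3.3 (glmQLFit without the legacy option, 3 group means, all 6 libraries, 3 residual and 7.01 prior degrees of freedom). Each contrast was adjusted by Benjamini-Hochberg over 10724 genes and called at 0.05. SE is the log2 fold change over the root of F, and intervals use that SE. Levels are TMM-scaled CPM; CPM per kb divides by the union of GENCODE M21 exons. GC content was matched for 99.3% of tested genes. Alternatives used limma 3.58.1 and DESeq2 1.42.0, other scalings and filters, a replicate block, GC offsets and each library left out.

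The members and lists were chosen with earlier results of these data known. The named genes are all members, up to 4 genes per list with the smallest p in a comparison and the 5 genes nearest to Bmf; Bcl2a1c, Bnip3l, Casp9 and Casp2 were added after their values were seen, and some genes that the rule takes in LPS + VD3 against control are given as counts only. Replicate numbers are shared across groups, and the LPS + VD3 libraries are labelled LPS1 plus VD3 and LPS2 plus VD3. The labels do not say that a number marks a shared animal or day, and the results are given without a block. Some genes of the apoptosome and caspase list, and its counts, are not reported here.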

Additional observations from a re-analysis of the deposited data

How the results depend on the processing

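In LPS + VD3 against LPS, the directions of Bcl2l1 and Bcl2l11 held in all 15 alternatives, with log2 fold changes of -1.86 to -1.17 and 0.87 to 1.04. The count of members called, 2, was 1 with no filter beyond 1 count and ranged from 0 to 4 when a library was left out. The genes called in all, 411, were 169 with no filter, 258 with the compared libraries only, 783 with GC offsets, 1152 with the replicate block, 1300 with block and GC offsets, and 55 to 3670 when a library was left out, the highest without LPS 2. In LPS against control, the 2 members called became 4 with the replicate block, GC offsets or both, adding Bcl2l1 and Bax, and 2 to 4 when a library was left out. The 3411 genes called became 1940 to 4829 when a library was left out, the lowest without control 2. In LPS + VD3 against control, 4 members called became 3 to 4 and 3749 genes became 2126 to 5410 on leaving out a library. Xiap, at 0.03 in LPS against control, was at -0.38 without LPS 2 and 0.34 without LPS 1. The share of higher calls in LPS against control, 49.2%, was 26.2% without scaling and 24.7% in the deposited log2 table, where the median of all genes moved by -0.295 and -0.287. In LPS + VD3 against control 50.5% became 25.9% and 24.2%. Of the members not called, Bak1, Bid, Bbc3, Pmaip1 and Mcl1 each changed sign in LPS against control or in LPS + VD3 against LPS when an LPS library was left out. The causes were not tested. The counts of members called against control in this paragraph include Bmf by the choice of the set, as a description without a test.

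The replicate numbers gave correlations of deviations from the group mean of 0.172 between LPS and control, 0.196 between LPS + VD3 and LPS and 0.0894 between LPS + VD3 and control, which does not show that they pair the libraries. With the replicate block, Bcl2l1 was at -1.53 and Bcl2l11 at 0.96 in LPS + VD3 against LPS, both called. The depth limits Bcl2, Bmf in stimulated cells and Bbc3, and fits with 1 library in a group assume that it varies like the others.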
